A study of Mus musculus with 24 samples.

Results

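The subject here is where the histone methyltransferase MLL1 (KMT2A) was detected on chromatin of mouse leukaemia cells carrying the fusion NUP98-NSD1, with and without a drug that blocks its contact with menin. The members are the regions of 2 deposited peak lists, out of 14 peak lists in a series of 24 ChIP-seq samples. Cells exposed to 200 nM VTP50469 for 96 hours gave 1036 regions, and cells exposed to DMSO, the solvent, for the same time gave 7113. The series' treatment text names 2 µM for all cells, whereas the sample labels of this line name 200 nM, which is used here. Both groups are the same cell line, grown in IMDM medium with fetal bovine serum and the mouse cytokines IL-3, IL-6 and SCF, and both were precipitated with the same antibody against MLL1 (Bethyl A300-086A). The series also holds MLL1 lists for NUP98-JARID1A and NUP98-HOXD13 cells (2 µM VTP50469 against DMSO, 96 hours) and for NUP98-HOXA9 cells (2 µM against DMSO, 72 hours), and some menin and H3K4me3 lists of those lines. The labels describe the material as mouse leukaemia and give neither the number of clones nor the number of mice behind the line.

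Each condition had 1 library, so no difference below has a replicate check, and no p-value is given. The 95% Wilson intervals cover counting error over regions or gene starts only. The lists were called per library, their read depth is not given in the sources used here, and the weakest region had a deposited −log10 q of 2.04 in the VTP50469 list and 2.00 in the DMSO list. Which input library served as control is not given in those sources either. The samples of this line include an input from VTP50469-treated cells and none from DMSO-treated cells. The fold enrichment printed for a region is the authors' value and is used only to rank regions within its own list.

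MLL1 is held at many of its target promoters through menin, an adaptor protein that also contacts the chromatin factor LEDGF. In leukaemias with MLL1 or NUP98 rearrangements the complex is known for occupying the later genes of the HOXA and HOXB clusters and MEIS1, whose products cooperate as DNA-binding partners and keep cells in a progenitor state. VTP50469 occupies the pocket of menin that binds the amino-terminal part of MLL1. NUP98-NSD1 joins the disordered repeats of a nuclear pore protein to a histone H3 lysine methyltransferase.

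The promoters of 4 genes and 2 microRNAs show the kinds of site the results turn on. Each stretch is the 250 bases before the RefSeq start (GRCm38.p6, the mm10 assembly), written 5′ to 3′ on the gene's strand, with any match to GAAANNGAA on either strand, a short form of the interferon-stimulated response element, in capitals. Irf2 had the second highest fold among the kept starts after VTP50469, Trim56 and Hoxa9 were among the lost starts with the highest DMSO fold, and Meis1 is the classical HOX partner gene. Their positions are chr8:46739495-46739744 on the plus strand for Irf2, and, all on the minus strand, chr5:137116208-137116457 for Trim56, chr6:52227371-52227620 for Hoxa9 and chr11:19018970-19019219 for Meis1.
Irf2: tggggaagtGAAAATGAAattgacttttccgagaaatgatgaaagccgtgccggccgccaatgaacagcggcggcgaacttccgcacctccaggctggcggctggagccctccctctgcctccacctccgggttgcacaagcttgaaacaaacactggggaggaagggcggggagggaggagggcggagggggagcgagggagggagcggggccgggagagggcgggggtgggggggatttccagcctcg
Trim56: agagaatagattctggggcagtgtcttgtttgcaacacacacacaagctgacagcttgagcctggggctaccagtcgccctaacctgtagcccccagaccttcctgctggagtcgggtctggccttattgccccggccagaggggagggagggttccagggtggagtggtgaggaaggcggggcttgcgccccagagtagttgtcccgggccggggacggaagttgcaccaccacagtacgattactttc
Hoxa9: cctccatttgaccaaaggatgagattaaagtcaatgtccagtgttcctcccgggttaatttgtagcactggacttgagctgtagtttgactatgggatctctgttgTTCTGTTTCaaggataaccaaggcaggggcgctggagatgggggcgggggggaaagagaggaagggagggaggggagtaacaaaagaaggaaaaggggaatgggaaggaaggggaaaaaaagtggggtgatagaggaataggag
Meis1: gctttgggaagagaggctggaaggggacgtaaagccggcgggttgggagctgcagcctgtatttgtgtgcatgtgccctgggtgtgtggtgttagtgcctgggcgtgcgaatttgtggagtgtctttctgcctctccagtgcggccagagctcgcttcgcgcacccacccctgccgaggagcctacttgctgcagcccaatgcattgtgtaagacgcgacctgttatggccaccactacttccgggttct

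The microRNAs are those encoded inside the HOX clusters, with the seed (bases 2 to 8) in capitals: miR-196b-5p from the Hoxa cluster (chr6:52230129-52230150, minus strand) and miR-10a-5p from the Hoxb cluster (chr11:96317186-96317208, plus strand).
miR-196b-5p: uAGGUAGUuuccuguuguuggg
miR-10a-5p: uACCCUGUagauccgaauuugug

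The first comparison asks how much of the MLL1 pattern of this line was still called after the drug. Of the 7113 DMSO regions, 6314 had no VTP50469 region overlapping them by at least 1 bp, which is 88.8% (95% interval 88.0 to 89.5). The remaining 799 kept regions were concentrated among the strongest and widest sites. With the DMSO list cut into deciles (10 equal groups) by fold, 275 of 711 regions of the top decile were kept (38.7%, interval 35.2 to 42.3), and 5.06% to 13.8% in the other deciles. Of the 100 DMSO regions with the highest fold, 89 were kept.

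Width gave the same picture, although a wider region meets the 1 bp rule more easily. Among DMSO regions of 3000 bp or wider, 34 of 40 (85.0%) overlapped a VTP50469 region, among those under 400 bp 91 of 2314 (3.93%) did. The widest class includes regions on chromosome 9 that were called in all lists and stayed covered in full. Its kept regions had an upper quartile of 100.0% of bases still covered. A kept region was rarely kept whole: a median of 44.2% of its bases was still covered (quartiles 31.8% and 64.3%), and the summit of the DMSO region lay inside a VTP50469 region in 598 of 799 cases (74.8%). Regions of 1500 to under 3000 bp had the smallest remaining part of the 5 width classes, a median of 27.5%.

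**Figure D1:**
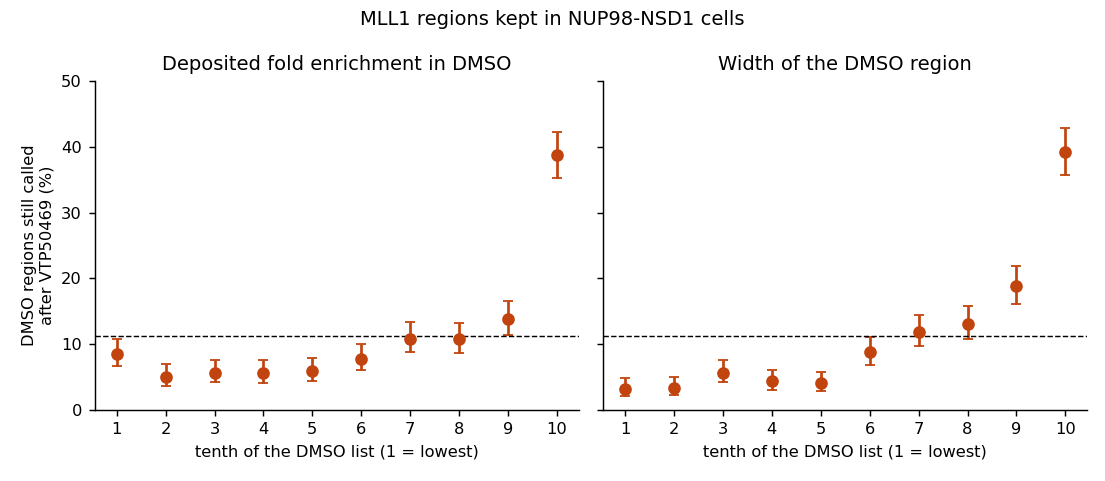
The 7113 DMSO MLL1 regions of NUP98-NSD1 cells in deciles by deposited fold (left) and by width (right). Points are the percentage still called after VTP50469, bars are 95% Wilson intervals over regions, and the dashed line is the share over all regions (11.2%). The top decile reached 38.7% by fold and 39.2% by width.

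Position in the genome was read next. Regions within 1 kb of a protein-coding gene start were kept in 582 of 4638 cases (12.5%), regions inside genes away from a start in 83 of 1591 (5.22%) and regions outside genes in 101 of 835 (12.1%). Within the top decile by fold the shares were 38.8% at starts, 31.6% inside genes and 49.5% outside genes. One broad domain outside protein-coding genes, on chromosome 15, held 3 of the 15 widest DMSO regions: 11862 bp (chr15:85661451-85673312), 6965 bp (chr15:85653185-85660149) and 6218 bp (chr15:85675225-85681442). After VTP50469, 4324, 1998 and 856 bp of them were still covered.

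A small part of the lists was shared by every library whatever its antibody. These were 42 VTP50469 regions and 73 DMSO regions overlapped in all 14 lists, with median folds of 4.51 in the VTP50469 list and 5.95 in the DMSO list. The widest in the DMSO list were 2 regions at the start of chromosome 9. They made up 21.4% of the VTP50469 bases and 3.14% of the DMSO bases. Without them and without sequences outside chromosomes 1 to 19 and X, 449038 bp remained covered after VTP50469 against 4572631 bp in DMSO, which is 9.82%, and with them 588621 bp after VTP50469 against 4739611 bp in DMSO, which is 12.4%.

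The second comparison reads the lists at genes. A start was called bound when a region touched the 1 kb either side of it, kept when it was bound in both lists, and lost when it was bound in DMSO only. Of 21627 protein-coding genes, 4950 were bound in DMSO. Of these 4278 were lost, which is 86.4%, and 672 were kept, which is 13.6%. Another 121 starts were bound after VTP50469 and not in DMSO, 0.726% of the 16677 starts unbound in DMSO. Covered length was also summed over each gene body with 2 kb either side; over all genes it was 457514 bp after VTP50469 and 4866457 bp in DMSO, 9.40%. Bases near several genes count once for each of them, in these and all sums over genes below. Regions near genes counted once came to 381380 bp after VTP50469 and 4175070 bp in DMSO (9.13%). In 5314 of 5648 genes with covered length in DMSO, at most 50% of it was covered after VTP50469 (94.1%).

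The later Hoxa genes, which encode the homeodomain factors of the leukaemic programme, were among the genes with most MLL1 remaining. In DMSO 1 region of 26004 bp ran over Hoxa7, Hoxa9, most of Hoxa10 and the start of Hoxa3 (chr6:52212448-52238451). After VTP50469 it was replaced by 9 regions that covered 11212 bp of it, the widest 3748 bp. Over the 11 Hoxa genes, 12225 bp were covered after VTP50469 and 36622 bp in DMSO (33.4%), against 9.40% for all genes. Of the 6 Hoxa starts bound in DMSO, 4 were kept (66.7%, interval 30.0 to 90.3), beside 13.6% of all bound starts. These starts touch 5 DMSO regions, of which 2 were kept, since Hoxa3, Hoxa7, Hoxa9 and Hoxa10 share 1.

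By gene, Hoxa10 was covered over 5580 bp after VTP50469 and 11762 bp in DMSO, and was the gene with the longest covered length after the drug. Hoxa7 had 2766 bp after VTP50469 and 6951 bp in DMSO, Hoxa11 1270 bp after VTP50469 and 5293 bp in DMSO, and Hoxa3 329 bp after VTP50469 and 3342 bp in DMSO. Hoxa9 had 2280 bp after VTP50469 and 8274 bp in DMSO, but counts as lost at its start: the VTP50469 regions on either side end at base 52226342 and begin again at base 52228453 of chromosome 6, just over 1 kb from the start at base 52227370. The gap over the Hoxa9 start lies where the promoter sequence above was taken.

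**Figure D2:**
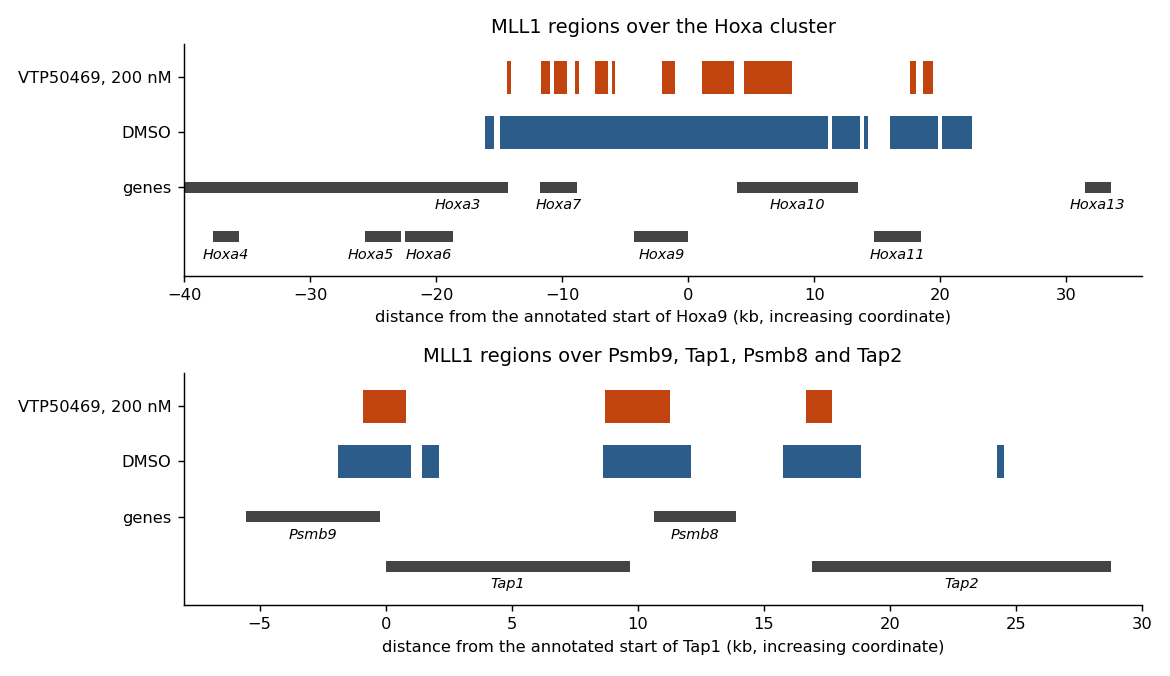
Deposited MLL1 regions of NUP98-NSD1 cells over the Hoxa cluster (top) and over Psmb9, Tap1, Psmb8 and Tap2 (bottom), to scale in kb from the start of Hoxa9 and of Tap1. Red bars are VTP50469 regions, blue bars DMSO regions and dark grey bars genes; heights carry no value. The 26004 bp DMSO region over Hoxa7 to Hoxa10 gives way to 9 separate VTP50469 regions, and the 3 broad DMSO regions of the Tap locus each keep a narrower one.

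Summed by gene, the Hoxb cluster had more covered length than Hoxa in DMSO, 51426 bp, and 3908 bp after VTP50469 (7.60%). Bases shared by neighbours such as Hoxb3, Hoxb5 and Hoxb6 count more than once in these sums, so the size of the difference from Hoxa is not read. Hoxb2 was the 1 kept start of 7 (14.3%), near the 13.6% of all bound starts, and with −log10 q of at least 5 in both lists 0 of 7 were kept. Hoxb3 had 2499 bp after VTP50469 and 14019 bp in DMSO, Hoxb6 558 bp after VTP50469 and 9056 bp in DMSO, and Hoxb8 501 bp after VTP50469 and 8197 bp in DMSO. Hoxb4, Hoxb5 and Hoxb7 had none after VTP50469 and 5200, 6390 and 6144 bp in DMSO. With the DMSO list shortened to its 1036 regions of highest −log10 q, the remaining part was 35.3% for Hoxa, 9.91% for Hoxb and 37.6% for all genes. Hoxa then still lay above Hoxb, but no longer above all genes.

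The microRNA genes followed their clusters. Mir196b, between Hoxa9 and Hoxa10, had 2921 bp after VTP50469 and 4085 bp in DMSO (71.5%). Mir10a, in the Hoxb cluster, had 0 bp after VTP50469 and 2692 bp in DMSO. The table used lists 1228 microRNA genes, of which 71 had covered length in DMSO and 7 of those 71 after VTP50469. No Hoxc or Hoxd start was bound in either list. Hoxc genes had 20475 bp after VTP50469 and 33920 bp in DMSO in NUP98-HOXA9 cells. In NUP98-HOXD13 cells they had 8028 bp after VTP50469 and 19985 bp in DMSO, and in NUP98-JARID1A cells 0 bp in both lists.

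Genes outside the HOX clusters that are usually named as menin and MLL1 targets in leukaemia had almost no coverage left. The list used holds no Hox gene, and the Hoxa and Hoxb genes are described above. Of 26 listed, 12 starts were bound in DMSO and 0 were kept (interval 0.0 to 24.2), which includes the 13.6% of all bound starts. Together they had 718 bp after VTP50469 and 50866 bp in DMSO (1.41%), beside 9.40% over all genes, and the 718 bp belonged to Lmo2, a stem cell transcriptional adaptor with 3651 bp in DMSO. Arid1b, a chromatin remodeller subunit, had 0 bp after VTP50469 and 8032 bp in DMSO. Meis1 had 0 bp after VTP50469 and 6189 bp in DMSO, Cdk6, a cell cycle kinase, 0 bp after VTP50469 and 5327 bp in DMSO, and Runx2, a transcription factor, 0 bp after VTP50469 and 4545 bp in DMSO.

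Meis1 differed from its partner Hoxa genes in having no region left. Pbx3 and Pknox1, which encode further TALE-class partners of HOX proteins, had none either, with 1664 and 658 bp in DMSO. At their starts the DMSO fold was 6.34 at Meis1, 7.53 at Pbx3 and 5.55 at Pknox1, beside a list median of 6.34. Over the whole Meis1 gene, 3818 of its 6189 bp in DMSO lay in the 1036 regions of highest −log10 q. With lists of equal length 0 of 7 bound target starts were kept (interval 0.0 to 35.4), beside 32.9% of all bound starts.

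Genes of the interferon response kept MLL1 far more often than genes at large. Of 56 listed interferon-stimulated gene names 53 were found, 42 were bound in DMSO and 25 of the 42 were kept (59.5%, interval 44.5 to 73.0), beside 13.6% of all bound starts. These starts touched 42 distinct DMSO regions, of which 23 were kept; some neighbours share a region and some starts touch more than 1. Covered length over the list was 22324 bp after VTP50469 and 67618 bp in DMSO (33.0%). With lists of equal length 25 of 31 bound interferon starts were kept (80.6%), beside 32.9% of all bound starts.

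The 10 kept starts with the highest fold after VTP50469 included 4 of the listed genes, Usp18, Parp12, Ifih1 and Igtp. Zc3hav1, an antiviral RNA-binding protein, had a fold of 28.7 within the VTP50469 list, Irf2, an interferon regulatory transcription factor, 27.5. Usp18, which removes ISG15 from proteins and restrains interferon receptor signalling, had 24.6 and Parp12, an ADP-ribosyltransferase family member, 20.2. Hoxa10 followed with 19.4, then Tap2, then Ifih1, a sensor of viral RNA, with 15.4, and Igtp, an immunity-related GTPase, with 15.3. Nmi, a STAT-interacting protein, had 14.2 and Rbm43, a putative RNA-binding protein, 14.0. Usp18 had the highest fold of any region in the DMSO list, 83.2, with Irf2 at 68.6, Parp12 at 51.5 and Zc3hav1 at 50.2. These 4 starts stood in the top decile of the DMSO list.

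Coverage at these genes was narrowed as elsewhere. Irf2 had 2481 bp after VTP50469 and 5460 bp in DMSO, Usp18 1109 bp after VTP50469 and 3306 bp in DMSO, Zc3hav1 898 bp after VTP50469 and 4863 bp in DMSO, and Ifih1 545 bp after VTP50469 and 2875 bp in DMSO. Of the antigen-processing genes on chromosome 17, Psmb8, an immunoproteasome subunit, had 2587 bp after VTP50469 and 3587 bp in DMSO, Tap1, a subunit of the peptide transporter, 4304 bp after VTP50469 and 6621 bp in DMSO, and Psmb9, which shares its start region with Tap1, 1717 bp after VTP50469 and 3235 bp in DMSO. Tap2 had 1006 bp after VTP50469 and 3351 bp in DMSO, and the length of Tap1 includes the regions counted at Psmb9 and Psmb8 after VTP50469. The map of the locus shows 3 VTP50469 regions inside the 3 broadest of 5 DMSO regions.

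Kept and lost interferon genes differed in their DMSO fold. In the top decile of bound starts by DMSO fold, 24 of 29 listed genes were kept (82.8%, interval 65.5 to 92.4), beside 170 of 466 other genes (36.5%, interval 32.2 to 40.9). This decile spans folds of 9.91 to 83.2, so listed and other genes are not matched for fold within it. Among the 1036 DMSO regions of highest −log10 q, 20.2% were kept at folds of 10.6 to 11.1 and 89.3% at 17.8 to 83.2. In the lower deciles together 1 of 13 was kept (7.69%), beside 478 of 4455 of all bound starts (10.7%); the 1 was Rnf213. The 5 lost genes of the top decile were Trim56, an E3 ligase of antiviral signalling, with a DMSO fold of 25.8, Uba7, the activating enzyme for ISG15, with 19.8, Cmpk2, a mitochondrial nucleotide kinase, with 17.8, Trim25, an E3 ligase acting on the RNA sensor RIG-I, with 16.3, and Eif2ak2, the kinase PKR, with 13.0. Ifit1, Ifit2, Ifit3, Irf7, Irf9 and Cxcl10 had no region in either list.

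The interferon genes already stood high in the DMSO list of this line. Ranked within each line's own DMSO MLL1 list, their median fold percentile was 97.6 in NUP98-NSD1 cells, and 84.8 in NUP98-JARID1A, 64.4 in NUP98-HOXD13 and 74.2 in NUP98-HOXA9 cells. For all bound gene starts the medians were 52.1, and 65.2, 73.3 and 75.3. In the top 10% of the list were 29 of 42 bound interferon genes in NUP98-NSD1 cells, and 18 of 42, 5 of 45 and 6 of 44 in the other lines in the same order. As shares these were 69.0%, 42.9%, 11.1% and 13.6%, beside 10.9%, 15.4%, 20.3% and 22.6% of all bound starts, so that the interferon share lay below that of all starts in NUP98-HOXD13 and NUP98-HOXA9 cells. The list was drawn up with earlier results of these data known, and the lines differ in library as well as fusion, which cannot be told apart.

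**Figure D3:**
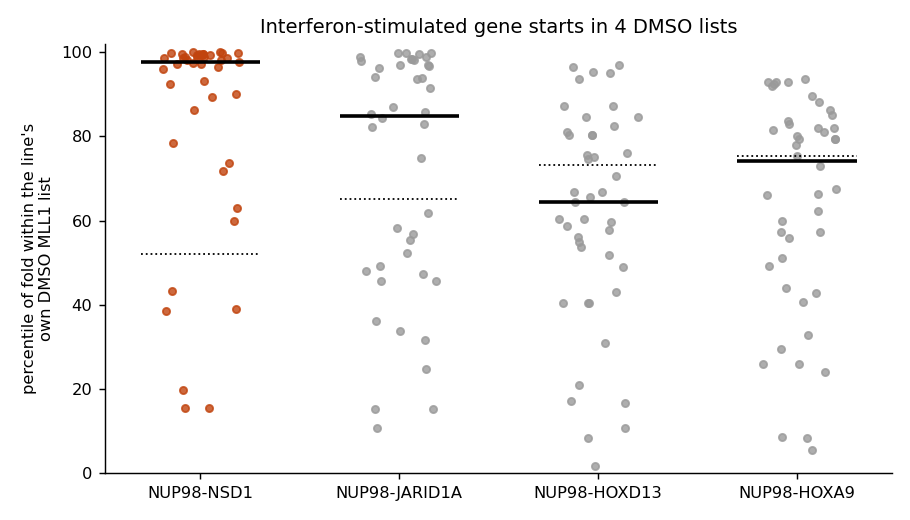
Percentile of deposited fold within each line's own DMSO MLL1 list for the listed interferon-stimulated genes bound at their start; each point is a gene, horizontal jitter carries no value. Thick lines are medians of the list (97.6 in NUP98-NSD1 cells, 84.8, 64.4 and 74.2 in the other lines) and dotted lines medians of all bound gene starts.

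Genes of cytokine receptors and JAK-STAT signalling, which the interferon receptors also use, were kept at 7 of 17 bound starts (41.2%, interval 21.6 to 64.0), beside 13.6% of all bound starts, with 4158 bp after VTP50469 and 27499 bp in DMSO (15.1%, beside 9.40% over all genes). With lists of equal length the remaining length was 29.1%, below the 37.6% of all genes. Socs1, a feedback inhibitor of JAK kinases, had 1086 bp after VTP50469 and 3125 bp in DMSO, Stat3 901 bp after VTP50469 and 3536 bp in DMSO, Jak2 736 bp after VTP50469 and 2253 bp in DMSO, Ifnar1, a type I interferon receptor chain, 322 bp after VTP50469 and 568 bp in DMSO, and Stat2 293 bp after VTP50469 and 891 bp in DMSO. Stat5b, the transcription factor downstream of IL-3, was at the other end with 0 bp after VTP50469 and 7032 bp in DMSO. The list shares members with the interferon list, Stat2 among them.

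**Figure D4:**
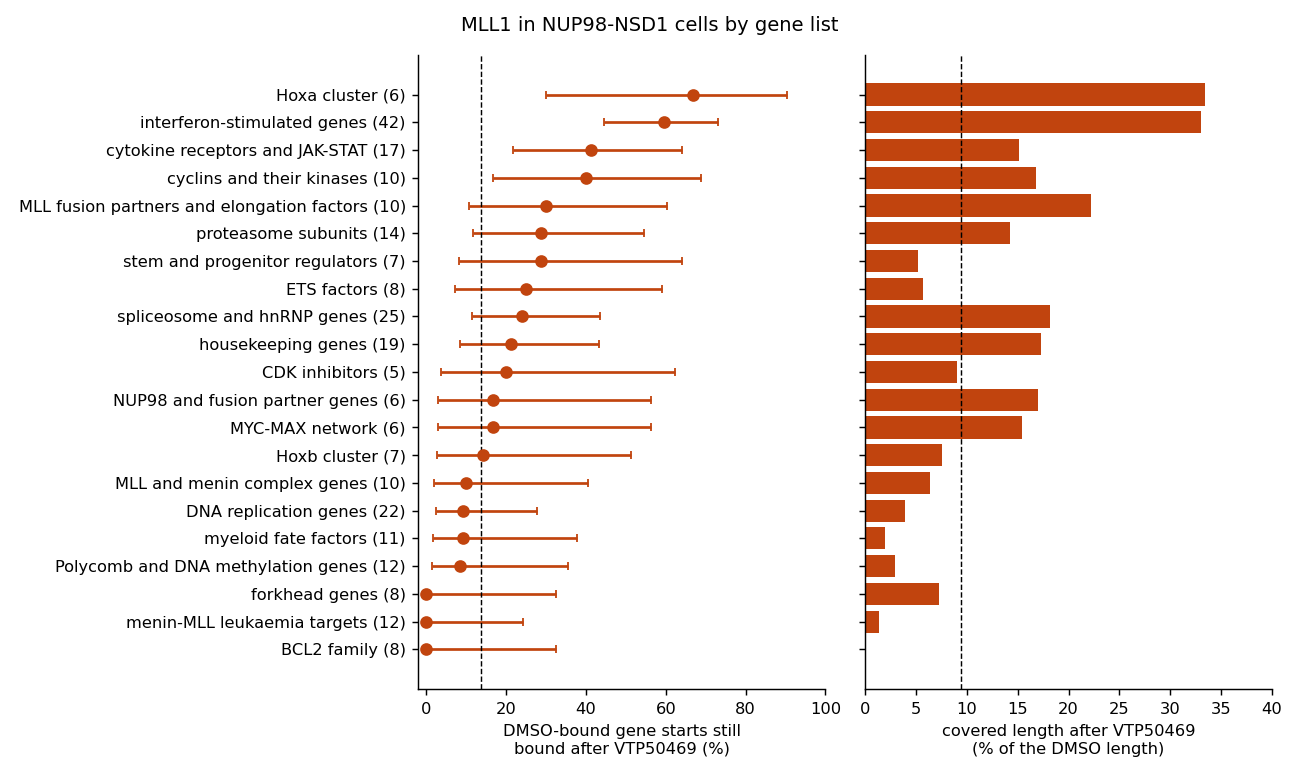
Gene lists with at least 5 starts bound in DMSO (number in brackets) in NUP98-NSD1 cells. Left, percentage of bound starts kept after VTP50469 with 95% Wilson intervals; right, covered length after VTP50469 as a percentage of DMSO; dashed lines mark all protein-coding genes (13.6% and 9.40%). The Hoxa and interferon lists lie highest in both panels, and the BCL2 family, the menin-MLL targets (listed without Hox genes) and the forkhead genes have no kept start.

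The lost starts with the highest DMSO fold were, in order, Hoxa9 (38.1), Foxp1 (26.0), Trim56 (25.8), Rsbn1l (24.2), Uba7 (19.8), Il1rap (18.6) and Dock8 (18.2). Each fold is that of the DMSO region touching the start, whose summit may lie elsewhere. The regions of Hoxa9 and Foxp1 were themselves kept away from these starts. The first, shared with the kept starts of Hoxa3, Hoxa7 and Hoxa10, held 9 VTP50469 regions, and the second kept 1054 bp. Foxp1, a forkhead transcription factor of blood and immune cells, was lost at its start but had 1719 bp after VTP50469 and 19274 bp in DMSO over the whole gene. Of 8 bound forkhead starts 0 were kept (interval 0.0 to 32.4), near the 13.6% of all bound starts, with 2463 bp after VTP50469 and 34032 bp in DMSO (7.24%, beside 9.40% over all genes). Further lost starts of this rank were Zbtb38, which had 270 bp after VTP50469 and 4519 bp in DMSO, and, with no coverage after the drug, Cdkn2c, a CDK inhibitor, Fut8, Rab21, Gna13, AB010352 and Oas1c, among others.

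The genes with the longest covered length in DMSO and none after the drug began with Arid1b (8032 bp) and Stat5b (7032 bp). They continued with Rapgef2 (6617 bp), Hoxb5 (6390 bp), Meis1 (6189 bp), Skap2, an adaptor next to the Hoxa cluster (6150 bp), Hoxb7 (6144 bp) and Elf1, an ETS factor (6063 bp). Nrg4 (5814 bp), Rreb1 (5645 bp), Cdk19, a Mediator kinase (5498 bp), Cdk6 (5327 bp), Tbxas1 (5326 bp), Hoxb4 (5200 bp) and Snx10 (4706 bp) completed the 15. In the DMSO list shortened to the length of the VTP50469 list all 15 still had covered length, between 637 bp at Stat5b and 6390 bp at Hoxb5.

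Among regulators of blood cell identity the share of starts kept was near or above the 13.6% of all bound starts, with wide intervals that include it, and the covered length left was below the 9.40% of all genes. Etv6, an ETS repressor needed by stem cells, had 815 bp after VTP50469 and 16228 bp in DMSO, and the 20 ETS genes together 1985 bp after VTP50469 against 35098 bp in DMSO (5.66%). Of 8 bound ETS starts 2 were kept (interval 7.15 to 59.1), Etv6 and Elk4 (384 bp after VTP50469 and 1620 bp in DMSO). Of 19 myeloid fate factors 11 starts were bound and that of Cebpg was kept (9.09%, interval 1.62 to 37.7; 370 bp after VTP50469 and 488 bp in DMSO), and with −log10 q of at least 5 in both lists 0 of 11 were. The 19 genes had 1.93% of their DMSO length left. Gfi1 had 0 bp after VTP50469 and 4160 bp in DMSO, Ikzf1 0 bp after VTP50469 and 3091 bp in DMSO, Runx1 0 bp after VTP50469 and 2206 bp in DMSO. Of stem and progenitor regulators 2 of 7 starts were kept (28.6%, interval 8.22 to 64.1) with 5.24% of the length, Etv6 and Msi2 (329 bp after VTP50469 and 706 bp in DMSO).

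Cell cycle and survival genes were mixed. The list of cyclins and their kinases also holds Rb1, E2f and Cdc25 genes. Of its 10 bound starts 4 were kept (interval 16.8 to 68.7), an interval above the 13.6% of all bound starts. With lists of equal length 0 of 1 was kept, too few to compare. The 4 kept starts were the cyclin gene Ccne1 and Rb1, E2f1 and E2f3. Cdk6 was lost and Cdk4 was bound after VTP50469 only. Cdkn1b, the inhibitor p27, had 681 bp after VTP50469 and 3984 bp in DMSO and was the 1 kept CDK inhibitor of 5 (20.0%, interval 3.62 to 62.4). In the BCL2 family of apoptosis regulators 0 of 8 bound starts were kept, with 0 bp after VTP50469 and 10048 bp in DMSO; Bid (2348 bp), Bcl2l11 (1684 bp) and Pmaip1 (1614 bp) had the longest lengths in DMSO. With 13.6% kept among all bound starts, 0 of 8 is near the background. In the MYC-MAX network 1 of 6 starts was kept (16.7%, interval 3.01 to 56.4), that of Mxd1 (699 bp after VTP50469 and 2233 bp in DMSO). Myc itself had 0 bp after VTP50469 and 1548 bp in DMSO. The CDK inhibitor and MYC-MAX intervals include the 13.6% of all bound starts.

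Genes of basic cell functions lay close to or above the all-gene share. Housekeeping genes were kept at 4 of 19 bound starts (21.1%, interval 8.51 to 43.3), Gapdh, B2m and Ppia among them; spliceosome and hnRNP genes at 6 of 25 (24.0%), led by Srsf7 with 770 bp after VTP50469 and 846 bp in DMSO; and constitutive proteasome subunits at 4 of 14 (28.6%), led by Psma3 with 619 bp after VTP50469 and 1564 bp in DMSO. DNA replication genes were kept at 2 of 22 (9.09%), Orc4 and Rpa3, and Polycomb and DNA methylation genes at 1 of 12 (8.33%), Ezh2. Every one of these intervals includes 13.6%.

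MLL1 was also called at its own gene and at others listed for MLL-family, menin and related complexes. The list is wider than the complex of MLL1 itself. Kmt2a, which encodes MLL1, had 364 bp after VTP50469 and 749 bp in DMSO and was the 1 kept start of 10, and with −log10 q of at least 5 in both lists 0 of 7 were kept. Kansl1 (1435 bp) and Hcfc2 (1077 bp) had the longest DMSO lengths otherwise together with Kmt2c (1072 bp), all with 0 bp after VTP50469. Of MLL fusion partners and elongation factors 3 of 10 starts were kept: Aff1 (1983 bp after VTP50469 and 4709 bp in DMSO), Mllt10 (559 bp after VTP50469 and 2258 bp in DMSO) and Ccnt1 (304 bp after VTP50469 and 464 bp in DMSO). The list of NUP98, its fusion partners and related genes includes Hoxa9 among the partners. Of its 6 bound starts 1 was kept, that of Xpo1, which is one of the related genes and not a partner. The intervals of these 3 lists (1.79 to 40.4, 10.8 to 60.3 and 3.01 to 56.4) include the 13.6% of all bound starts. Nsd1 had 0 bp after VTP50469 and 914 bp in DMSO, and Xpo1, the nuclear export receptor bound by NUP98 fusions, 294 bp after VTP50469 and 719 bp in DMSO.

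Markers of mature or other blood lineages carried little MLL1 in this line. In DMSO 2 of 20 neutrophil and monocyte effector starts were bound (Elane and Cd14), 2 of 17 erythroid and megakaryocyte markers (Klf1 and Tfrc), 0 of 17 lymphoid markers and 1 of 11 mast cell and basophil markers found (Mitf), beside 22.9% of all genes. After VTP50469 0 of these 5 starts were bound, and Prtn3 was the 1 marker with covered length (397 bp after VTP50469 and 1167 bp in DMSO). MLL1 regions do not measure expression, so the labelled cell type was not checked by RNA.

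Of the 121 starts bound after VTP50469 and not in DMSO, the 10 with the highest fold were, in order, Plekho2 (13.0), Hnrnpc (9.90), Cdk4 and Camta1 (8.55 each), Rgl1 and Arpc5, which share 1 region, Abhd17a and Slc25a42 (8.10 each), and Gpr137c and Txndc16, which share 1 (7.92). Covered lengths of these 10 after VTP50469 ran between 288 bp at Rgl1, Arpc5 and Abhd17a and 964 bp at Camta1. Hspa8, a heat shock chaperone, was the gained housekeeping gene (524 bp after VTP50469 and 0 bp in DMSO). Of the 10 genes with the longest covered length after the drug, Tmem267 was the 1 with less in DMSO, 2756 bp after VTP50469 and 434 bp in DMSO, with no region at its start in either list. With −log10 q of at least 5 in both lists this turned round, to 284 bp after VTP50469 and 434 bp in DMSO.

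The 223 VTP50469 regions that overlapped no DMSO region split sharply by what other lines showed. Of these 135 (60.5%) were called in all 6 MLL1 lists of the other lines, 83 (37.2%) in none, and 5 in between. At gene starts lay 115 of the 223 (51.6%). In the H3K4me3 list of DMSO-treated NUP98-HOXA9 cells 39 of them (17.5%) were called, against 560 of the 799 kept DMSO regions (70.1%) and 3641 of the 6314 lost ones (57.7%).

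Chromosome 6 stood out in both lists of this line. It held 157 of 1036 VTP50469 regions (15.2%, interval 13.1 to 17.5) and 639 of 7113 DMSO regions (8.98%, interval 8.34 to 9.67), beside 4.90% to 5.29% in the treated and 5.19% to 5.46% in the DMSO MLL1 lists of the other lines. With the DMSO list shortened to its 1036 regions of highest −log10 q, chromosome 6 held 13.8% of it, inside the interval of the VTP50469 share. Of its DMSO regions 17.2% were kept, beside 10.6% on all other sequences, and of its bound gene starts 92 of 332 (27.7%), beside 580 of 4618 elsewhere (12.6%). Below the top decile by fold the share kept was 10.8% on chromosome 6 and 8.17% over all sequences. Of new VTP50469 regions 33 of 223 (14.8%) lay there.

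Several of the genes described are on chromosome 6: the Hoxa cluster, Usp18, Parp12, Zc3hav1, Foxp1, Etv6 and Cdkn1b. Without it 22 of 39 interferon genes were kept (56.4%). The part of chromosome 6 in the Hoxa result was not tested. Chromosome X held 4 VTP50469 regions (0.386%) and 29 DMSO regions (0.408%), beside 1.60% to 2.17% in the other lines' MLL1 lists.

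**Figure D5:**
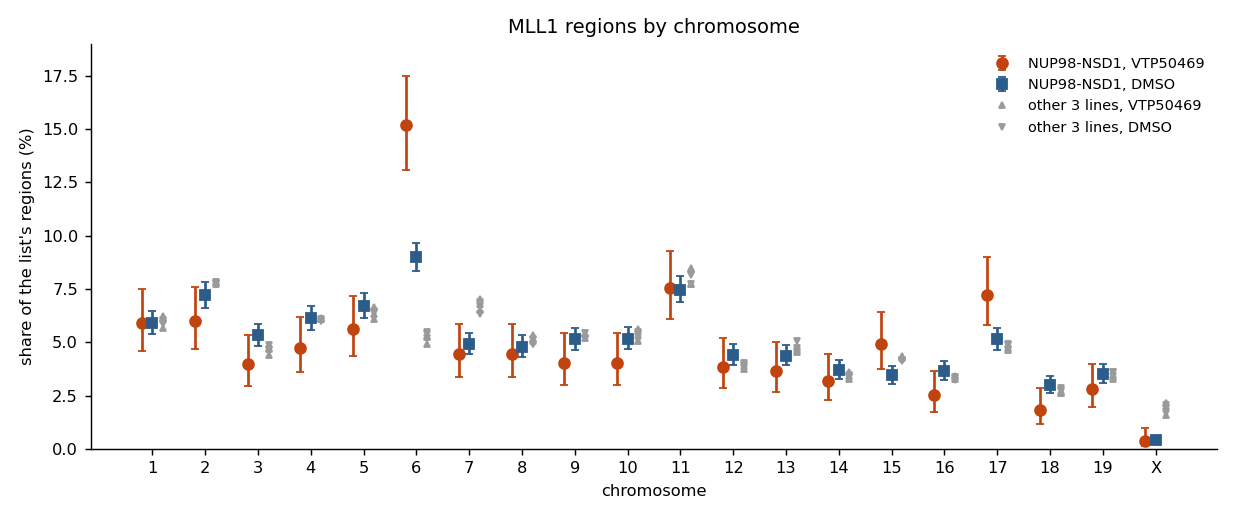
Share of each MLL1 list's regions by chromosome. Red circles are NUP98-NSD1 cells after VTP50469 and blue squares NUP98-NSD1 cells in DMSO, with 95% Wilson intervals over regions; grey triangles are the lists of the other 3 lines. Chromosome 6 holds 15.2% and 8.98% of the NUP98-NSD1 lists and at most 5.46% of any other.

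Set beside the other lines, the number of sites lost was far larger in NUP98-NSD1 cells although the labelled dose was lower. Gene starts lost were 86.4% of those bound in DMSO, and 0.981% in NUP98-JARID1A, 12.2% in NUP98-HOXD13 and 3.81% in NUP98-HOXA9 cells. The DMSO list was also the shortest, with 4950 bound starts, and 9177, 10148 and 9980 in the other lines. Of the 4278 starts lost in NUP98-NSD1 cells, 4059 were bound in DMSO in all 3 other lines and 3763 (88.0%) were kept in all 3; 5 were lost in all 4 lines, namely Bag2, Pik3ip1, Tgtp2, Stx18 and Mvb12b. Dose, library and, for NUP98-HOXA9, time differ along with the fusion and cannot be told apart, and these differences have no test.

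Relative to all genes of the same line, the lists had 2 orders. Menin-MLL targets, listed without Hox genes, had less covered length remaining than all genes in each line. The shares were 1.41% beside 9.40% in NUP98-NSD1 cells, 80.1% beside 131% in NUP98-JARID1A, 17.6% beside 58.3% in NUP98-HOXD13 and 31.5% beside 76.6% in NUP98-HOXA9 cells. Interferon-stimulated genes had more than all genes in NUP98-NSD1 cells, 33.0% beside 9.40%, and less in the other lines, 96.8% beside 131%, 32.4% beside 58.3% and 53.6% beside 76.6% in the same order. Hoxa genes had 33.4% in NUP98-NSD1 cells, and 104%, 25.3% and 61.8% in the others. With NUP98-NSD1 lists of equal length the values were 42.7% for interferon-stimulated genes and 35.3% for Hoxa genes beside 37.6% for all genes, so that Hoxa lay below all genes there. Meis1 had 0 bp after VTP50469 and 6189 bp in DMSO in NUP98-NSD1 cells, 3582 bp after VTP50469 and 13134 bp in DMSO in NUP98-JARID1A, 678 bp after VTP50469 and 9331 bp in DMSO in NUP98-HOXD13, and 984 bp after VTP50469 and 10718 bp in DMSO in NUP98-HOXA9 cells.

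Promoter letters were read in RefSeq stretches of 300 bases (250 before and 50 after the start), on both strands, for the 577 kept, 3491 lost and 105 gained genes that the table holds. GAAANNGAA was found in 58 kept promoters (10.1%), 253 lost ones (7.25%) and 8.18% of all 17273. Among the top decile by DMSO fold it was in 36 of 162 kept promoters (22.2%, interval 16.5 to 29.2) and 23 of 236 lost ones (9.75%, interval 6.58 to 14.2). Without the listed interferon genes these were 28 of 144 (19.4%) and 21 of 231 (9.09%). Interferon-related genes outside the list remain in these counts, Irf2 with its printed match among them. Kept and lost promoters of this decile were not matched for fold. Within the interferon list the shares were alike, 8 of 19 kept and 7 of 16 lost.

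For the other letters searched, the GC box GGGCGG was in 76.9% of kept, 70.1% of lost and 46.9% of all promoters, the CCAAT box in 46.8% of kept (interval 42.8 to 50.9), 36.9% of lost (interval 35.3 to 38.5) and 39.6% of all, and the ETS letters CCGGAAGT in 8.84%, 9.74% and 5.34%. Median GC content was 65.0% in kept and 63.3% in lost promoters, and 54.0% in unbound ones. Gained promoters had the CCAAT box in 59 of 105 cases (56.2%). The HOX-MEIS-like letters TGATTTAT were in 0 of 577 kept and 8 of 3491 lost promoters, and in 0.892% of all. The kept and lost intervals (0.0 to 0.661 and 0.116 to 0.452) overlap, so no contrast is read. A match or its absence in this window says nothing of binding.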

How the data were processed

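ChIP-seq for MLL1 was analysed in NUP98-NSD1 mouse leukaemia cells, 1 library after VTP50469 and 1 in DMSO. The deposited files are narrowPeak lists in mm10 coordinates, 1 per library. In them the authors deposited a score, a fold enrichment (ratio) at the summit, and −log10 p-values and q-values for each peak. Per the submitters' processing notes, the tools were MACS2, bedtools, SAMtools, STAR (version 2.7.5a), Picard (version 2.9.4) and bcl2fastq (version 2.20.0.422), with no role stated for each, and the build was mm10. Neither the read depth nor the control library is stated there.

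Intervals were compared with Python 3.11.15, numpy 2.4.6 and pandas 2.3.3, and figures drawn with matplotlib 3.10.9. An overlap needed 1 bp. Gene starts came from the RefSeq promoter table (GRCm38.p6) for 17273 of 21627 protein-coding genes, and both annotated ends were used for the other 4354. The interval code was tested on simulated regions. No test across samples was possible with 1 library per condition.

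Genes were named by rule: the 10 longest covered after VTP50469, the 10 kept and 10 gained starts with the highest VTP50469 fold, the 20 lost starts with the highest DMSO fold, the 15 longest covered in DMSO with none after VTP50469, and leading members of 28 gene lists. Classes by decile were chosen after seeing the data, in place of the coarser classes planned. The comparison, gene lists and tests were chosen with earlier results of these data known. Some genes that the rule names are not reported here.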

Additional observations from a re-analysis of the deposited data

Results flagged for a closer look

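In the full lists, the share of MLL1 regions on 4 chromosomes differed from DMSO in one direction after VTP50469 in NUP98-NSD1 cells. In each of the other 3 lines it differed in the opposite direction. The differences were not tested. Chromosome 6 held 15.2% of regions after VTP50469 and 8.98% in DMSO in NUP98-NSD1 cells, against 5.25% after VTP50469 and 5.40% in DMSO in NUP98-JARID1A, 4.90% after VTP50469 and 5.19% in DMSO in NUP98-HOXD13, and 5.29% after VTP50469 and 5.46% in DMSO in NUP98-HOXA9 cells. With the NUP98-NSD1 DMSO list shortened to the length of the VTP50469 list, chromosome 6 held 13.8% of it, inside the 95% interval of the VTP50469 share (13.1 to 17.5). Chromosome 4 held 4.73% after VTP50469 and 6.12% in DMSO, chromosome 8 held 4.44% after VTP50469 and 4.79% in DMSO, and chromosome 16 held 2.51% after VTP50469 and 3.64% in DMSO in NUP98-NSD1 cells. On each of these the VTP50469 and DMSO intervals overlapped. They were 3.6 to 6.2 and 5.58 to 6.7 on chromosome 4 and 3.35 to 5.87 and 4.32 to 5.32 on chromosome 8. On chromosome 16 they were 1.72 to 3.65 and 3.23 to 4.1. With the DMSO list shortened in the same way, chromosome 8 held 46 of 1036 regions after VTP50469 and 42 of 1036 in DMSO. Its direction in NUP98-NSD1 cells then turned to that of the other lines. Chromosome 4 then held 49 regions after VTP50469 and 52 in DMSO, and chromosome 16 held 26 after VTP50469 and 38 in DMSO. In the other lines the shares of chromosomes 4, 8 and 16 were higher after VTP50469 than in DMSO by small amounts, for example 6.11% after VTP50469 and 6.07% in DMSO on chromosome 4 in NUP98-JARID1A cells.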

How the results depend on the processing

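No paired analysis was possible because each condition had 1 library, and for the same reason no replicate could be left out. The recomputed results were DMSO regions lost (88.8%), bound gene starts lost (86.4%) and bases covered after VTP50469 as a share of DMSO (12.4%). Lists of equal length gave the largest shifts: 66.3%, 67.1% and 45.5% by −log10 q, and 68.1%, 68.0% and 48.6% by fold. With −log10 q of at least 5, starts lost were 88.3% and bases 12.0%; on chromosomes 1 to 19 bases were 10.8%; near genes alone, 9.13%. Regions lost were 95.1% when 50% of the region had to be covered, 87.7% when a VTP50469 region within 1 kb sufficed, and 91.6% by the DMSO summit; starts lost were 85.2% over gene bodies. Alternatives added after seeing the data gave 89.8%, 87.4% and 9.82% without both the regions found in all lists and the sequences outside chromosomes 1 to 19 and X, and 87.4% of starts and 12.0% of bases without chromosome 6. Covered length turned to above DMSO with equal lists for cyclins and their kinases (231%), MLL fusion partners and elongation factors (103%) and housekeeping genes (253%), as few of their DMSO regions are among the strongest. With −log10 q of at least 5, Tmem267 turned to 65.4% and Ddx5 to 0.0% of DMSO. Read depth is unknown, so a region lost cannot be told apart from one that fell below the calling limit.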
